A study of Sus scrofa with 40 samples.

Results

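Cultured endothelial cells regrown on a denuded pig coronary artery were compared between 6 animals of the fish oil group (FO, a diet rich in polyunsaturated fatty acids) and 8 animals of the control group. The samples were chosen by their titles alone, FO-regenerated 1 to 6 and control-regenerated 1 to 8, which makes 14 of the 40 arrays of the series. The series held 3 diet groups of farm pigs, the third fed high cholesterol, and from each animal a culture of regenerated cells, from the previously denuded stretch of the left anterior descending artery (LAD), and a culture of native cells, from the left circumflex artery (LCX). RNA of each culture was hybridised to an Affymetrix porcine array.

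All animals of both groups were female and 4 months old. The lumen was scraped and the cells were grown for 10 days on collagen in medium with serum, and RNA was taken at passage zero. Fish oil and control animals therefore shared the denudation and the culture, and the diet acted in the animal, before the cells spent 10 days in a common medium. The dose and length of the feeding are not given in the sources used here.

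The endothelium lines every vessel and sets vascular tone, clotting and the entry of leukocytes, through nitric oxide, prostanoids, endothelin, thrombomodulin and adhesion molecules. When the lining of a coronary artery is stripped, neighbouring endothelial cells divide and cover the bare surface, and the regrown lining of pig coronary arteries is known for weaker release of nitric oxide. Long-chain omega-3 fatty acids from fish oil enter membrane phospholipids, compete with arachidonic acid for cyclooxygenases, activate peroxisome proliferator-activated receptors (PPARs) and lower the activity of the sterol regulatory element-binding proteins that drive lipid synthesis.

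The cultures carried endothelial transcripts on every array. The signal of CDH5 (VE-cadherin, the adhesion molecule of endothelial junctions) ran from 8468 to 11270 in the control arrays and from 6798 to 9863 in the FO arrays. PECAM1, another junction molecule, ran from 5520 to 9812 and from 4452 to 7946. The von Willebrand factor probe set was dim, at 29.1 to 66.1 and 42.3 to 83.7, and the KDR probe set was too dim to be tested. Smooth muscle transcripts were also bright and varied widely: ACTA2 (smooth muscle actin) ran from 192.5 to 18920 in the control arrays and from 117 to 16460 in the FO arrays. The 5 leukocyte markers tested did not agree in level: TYROBP and CD14 reached at most 99.4 and LYZ 701.4, while CD74 ran from 706 to 4298 and CCL5 (a chemokine) from 255.6 to 10830. Of the 7 fibroblast markers, COL1A1 and DCN reached at most 99.7, LUM, POSTN, COL3A1 and S100A4 reached 1014 to 2490, and FN1 (fibronectin) ran from 8786 to 22320. No test was made of which cells in the cultures carried these transcripts. In such bulk cultures fewer cells of a type and less RNA per cell cannot be told apart.

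Three-prime to five-prime signal ratios set apart a pair of arrays before any comparison. Control array 6 had an actin ratio of 263.5 and a GAPDH ratio of 1005, and FO array 3 had 422.1 and 59.9. In the other 38 arrays of the series the actin ratio was at most 6.89 and the GAPDH ratio at most 1.82, so the main results are also given over the 12 arrays without this pair. The sample descriptions of 5 control animals begin with the letters MA, while those of the other 3 control animals and of all 6 FO animals name an artery (LAD or LCX). What the MA names stand for is not given in the labels, and values against the 3 artery-named control arrays are given beside many of the results. These 3 are control arrays 6, 7 and 8, so they include control array 6 of high ratio. FO array 3 also stayed in those values. The signals had been scaled by the depositors to a trimmed mean of 500.1 on each array. Correlations of the log2 signals had a median of 0.941 within the control arrays, 0.923 within the FO arrays and 0.935 between them.

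No probe set differed between FO and control regenerated cells after adjustment. Of 17999 probe sets tested with limma, 0 (0%) had a Benjamini-Hochberg adjusted p under 0.05, and the smallest adjusted p was 0.946. At an unadjusted p under 0.05 there were 848 probe sets (4.71%), 399 higher (2.22%) and 449 lower (2.49%) in FO, where 899.95 would be expected by chance. Over the 12 arrays the count called was again 0 (0%), with 981 at an unadjusted p under 0.05 (5.45%, 448 higher or 2.49% and 533 lower or 2.96%) and a smallest adjusted p of 0.649. Against the 3 artery-named control arrays it was 0 (0%), with 345 (1.92%). Leaving out each array in turn gave 0 calls in all but 1 case: without FO array 1, a single probe set with no title was called, with a difference of 1.23 (SE 0.13, adjusted p = 0.00397), and the unadjusted count was 1408. Without FO array 5 the unadjusted count was 500.

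The precision of the comparison limits what these values show. All differences are FO minus control on the log2(signal + 16) scale, which understates the change of dim transcripts, and n is 6 FO and 8 control arrays. The median distance from an estimate to its 95% limit was 0.49, a 1.41-fold difference. For 14044 probe sets (78.0%) the whole interval lay within 2-fold either way. A fitted difference beyond 2-fold was found for 115 probe sets (0.639%), 81 higher (0.45%) and 34 lower (0.189%). In 11 probe sets (0.0611%) the groups did not overlap, with all FO arrays above all control arrays in 6 (0.0333%) and below them in 5 (0.0278%). Among the 2217 genes with a symbol, 1168 (52.7%) were higher in FO by sign and the median difference was 0.02, and 83 (3.74%) had an unadjusted p under 0.05, 41 higher (1.85%) and 42 lower (1.89%). Over all probe sets 8750 (48.6%) were higher and the median was -0.01. Every transcript named from here on had a limma adjusted p of 0.946 or more over the 14 arrays.

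**Figure D1:**
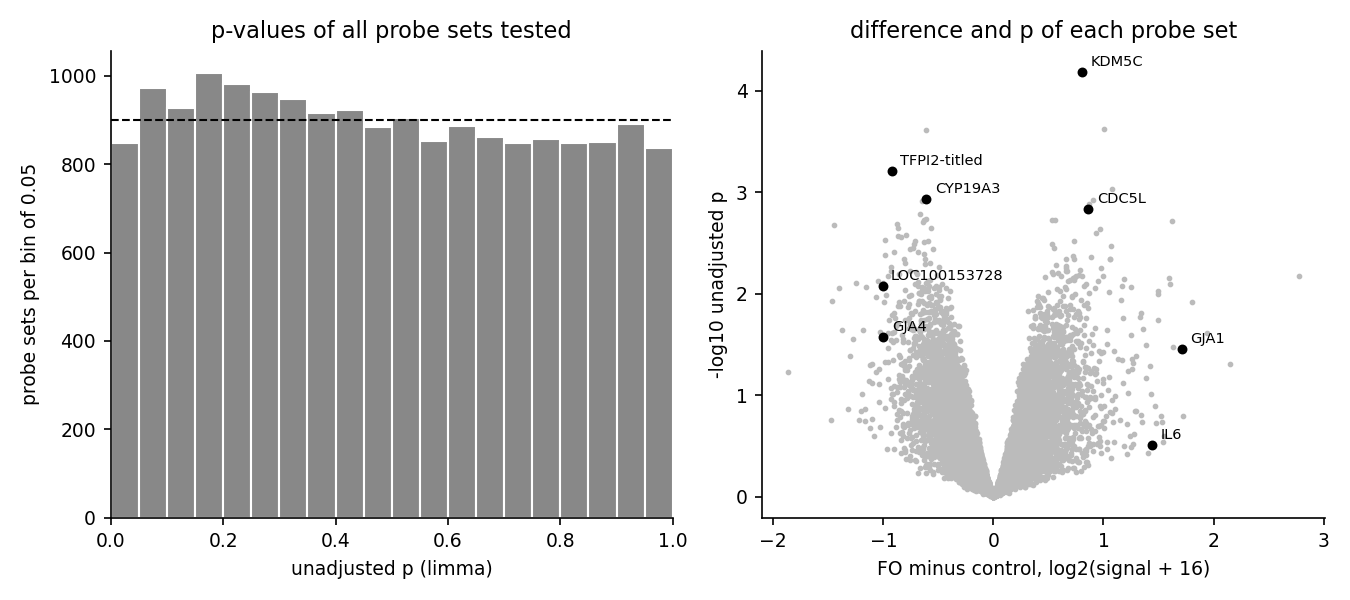
Left, the number of probe sets per bin of unadjusted limma p (bins of 0.05), with the dashed line at the 899.95 per bin that chance gives; the first bin holds 848. Right, FO minus control difference in log2(signal + 16) against -log10 of the unadjusted p for each of the 17999 probe sets, with 8 named; no probe set had an adjusted p under 0.05.

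The 18 genes given here for the smallest p, 9 in each direction, had unadjusted p-values from 0.000922 to 0.0137 and limma adjusted p-values of 0.946 throughout. Their differences corresponded to 1.33-fold to 2.11-fold. All 18 had the same sign over the 12 arrays and against the artery-named control arrays, but 16 of 18 lay nearer 0 against the latter, and 5 at less than 0.5 times the size. Because they were picked for their p-values, these agreements describe the genes and do not test them.

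Among the 9 genes that stood higher in FO, CDC5L codes for a core subunit of a spliceosome complex. Its signal was 210 at the lowest, 256 at the median and 433 at the highest in the control arrays, and 361, 521 and 826 in the FO arrays. Only FO array 4 lay within the control range. The difference was 0.86 (95% interval 0.39 to 1.34) and 0.92 over the 12 arrays. The 5 MA-named control arrays lay at 210 to 289.5 and the 3 artery-named ones at 355.5 to 433, and against the latter the difference was 0.37. The same split was seen in DDRGK1, a regulator of UFM1 protein modification in the endoplasmic reticulum. Its signal was 708.5 to 967 in the MA-named, 1243 to 1836 in the artery-named and 1362 to 1965 in the FO arrays, and its difference went from 0.60 to 0.08. LOC100154666 (0.64, and 0.18 against the artery-named control arrays) and the mevalonate kinase gene MVK also had no overlap between the 2 naming styles. The part of the naming style in these differences was not tested.

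LOC100156139, described as similar to the ubiquitin ligase TRIM39, had control signals of 9.19, 17.3 and 65.8 (lowest, median and highest, as in the genes that follow) and FO signals of 45.0, 69.6 and 96.4. The difference was 1.08 (0.52 to 1.64), 1.01 over the 12 arrays and 0.67 against the artery-named control arrays. SECISBP2, which binds the selenocysteine insertion element of selenoprotein mRNAs, had control signals of 343, 562 and 925 and FO signals of 699.9, 984 and 2299, a difference of 1.05 (1.12 over the 12 arrays). In both genes 4 or fewer FO arrays lay above the highest control array, so the groups overlapped. The other genes of this direction were PRRT3 at 0.74, CSDC2 (an RNA-binding cold shock protein) at 0.83, SLC22A6 (an organic anion transporter) at 0.45 and ENSA (endosulfine alpha, an inhibitor of the phosphatase PP2A in mitosis) at 0.42.

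Among the 9 genes that stood lower in FO, CYP19A3, a pig aromatase gene, was the only one whose groups did not overlap. Its control signals were 48.6, 53.8 and 65.9 and its FO signals 18.0, 32.6 and 47.9, all of them dim. The difference was -0.61 (-0.94 to -0.28), -0.63 over the 12 arrays and -0.60 against the artery-named control arrays. Aromatase genes of the pig are close copies of each other, and the probe set carries the suffix used for probes that match more than a single transcript, so its signal may hold more than CYP19A3.

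LOC100153728, described as similar to DOCK9 (a guanine nucleotide exchange factor for CDC42), had control signals of 751, 1725 and 3164 and FO signals of 438, 731 and 1369. The difference was -1.01 (-1.71 to -0.30), -0.88 over the 12 arrays and -0.47 against the artery-named control arrays. In the native cells of the same diets the difference of this gene was -1.11. A somewhat dimmer probe set of the same gene differed by -0.34 (SE 0.31) in the regenerated cells. LOC100157945, described as similar to the magnesium and calcium channel TRPM7, had control signals of 363, 508 and 634 and FO signals of 220.1, 326 and 401, a difference of -0.64 (-0.39 against the artery-named control arrays). Its FO arrays lay below the lowest control array in 5 of 6 cases.

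The remaining 6 genes of this direction act in several parts of the cell. DENND6A, an activator of a Rab GTPase, differed by -0.63, and ARFGEF1, an activator of ARF GTPases at the Golgi, by -0.69. RAN, the GTPase of nuclear transport, differed by -0.52, with control signals of 302, 415 and 669 and FO signals of 231, 298 and 318. SLIRP, which binds mitochondrial mRNAs, differed by -0.69, and by -0.30 against the artery-named control arrays. LOC100156157, described as similar to the cohesin subunit stromal antigen 2, differed by -0.50. ADD3, a membrane skeleton adducin, differed by -0.55 in a dim probe set (signals of 16.7 to 57.1), which differed by 0.38 in native cells. Its other probe set differed by -0.20 (SE 0.23) in the regenerated cells.

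**Figure D2:**
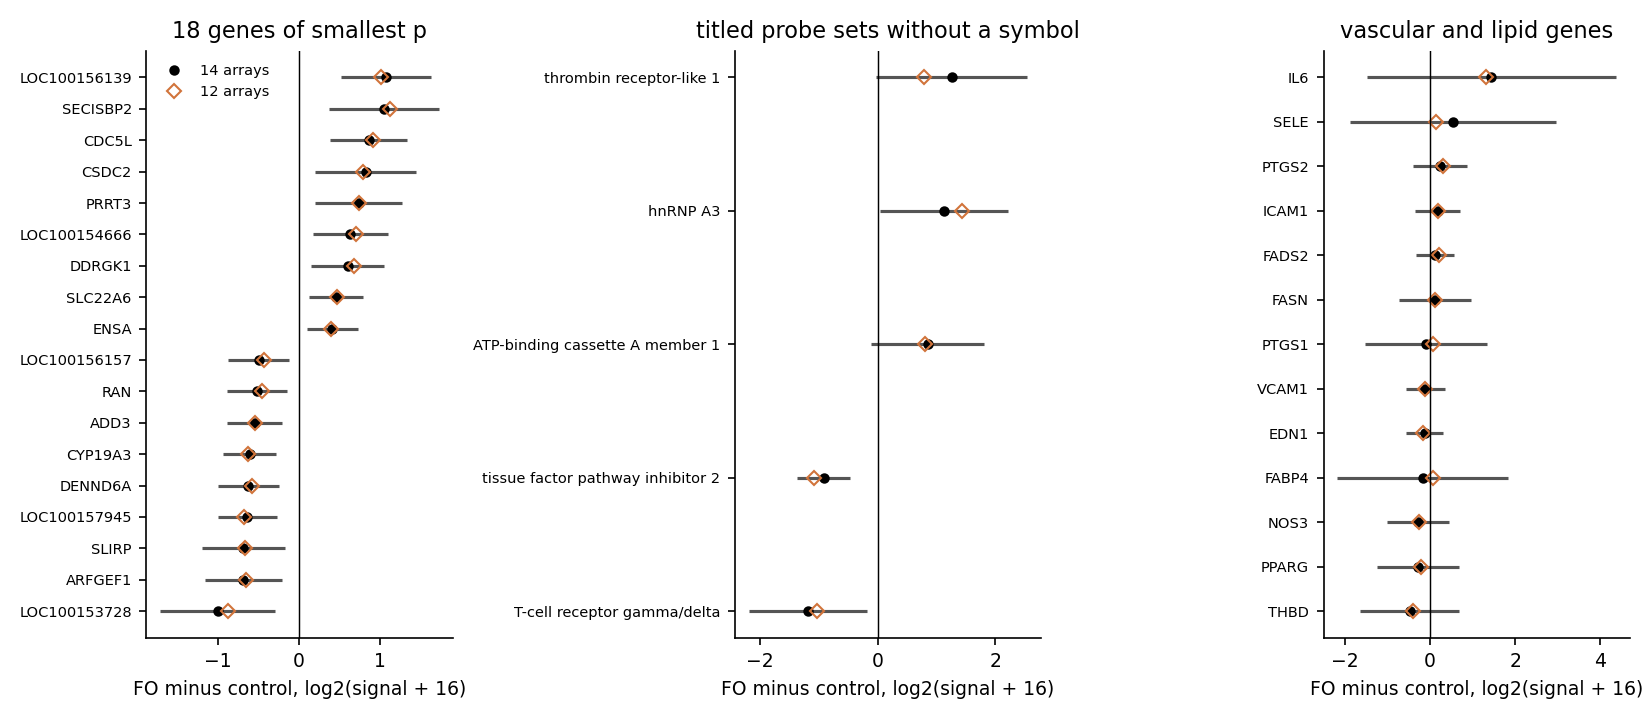
FO minus control differences in log2(signal + 16) for 18 genes of smallest p (left), 5 probe sets with a title but no symbol (middle) and 13 vascular and lipid genes (right). Filled circles with lines are estimates over 14 arrays with 95% intervals, and open diamonds are estimates over 12 arrays; the intervals of all 13 vascular and lipid genes span 0.

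The probe set of smallest p in the whole table, singled out after its value was seen, belonged to KDM5C, a histone H3 lysine 4 demethylase on the X chromosome. Its signals were dim, at 7.61, 12.8 and 21.6 in the control arrays and 26.2, 34.0 and 43.0 in the FO arrays, with no overlap. The difference was 0.81 (0.49 to 1.13), 0.78 over the 12 arrays and 0.80 against the artery-named control arrays. A brighter KDM5C probe set differed by -0.04. In native cells the dim probe set differed by -0.06, and the regenerated minus native difference was 0.87 (SE 0.28, adjusted p = 0.947, limma).

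Of the probe sets with a title but no symbol, the smallest p belonged to tissue factor pathway inhibitor 2, a secreted inhibitor of plasmin and matrix-degrading serine proteases. The control arrays had signals of 151, 231 and 321 and the FO arrays 80.6, 103 and 212. FO arrays 1, 2, 4 and 5 lay below every control array, while FO array 6 at 155 and FO array 3 at 212 lay within the control range. The difference was -0.92 (-1.38 to -0.46), -1.09 over the 12 arrays (adjusted p = 0.649) and -1.15 against the artery-named control arrays. In native cells it was 0.25, and the regenerated minus native difference was -1.17 (SE 0.38, adjusted p = 0.947, limma). TFPI itself, the inhibitor of the tissue factor complex, differed by -0.80 (-1.71 to 0.10), and by -0.29 against the artery-named control arrays.

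Other titled probe sets were set by part of the arrays. The thrombin receptor-like 1 probe set (a protease-activated receptor) had control signals of 6.54, 32.8 and 74.2. FO arrays 3, 4 and 6 lay between 307 and 369, whereas FO arrays 1 and 2 lay at 12.3 and 12.2, and the difference of 1.26 was 0.79 over the 12 arrays. The probe set of heterogeneous nuclear ribonucleoprotein A3, an RNA-binding protein, differed by 1.13, and the T-cell receptor gamma and delta constant region by -1.19. The latter had signals of 299, 433 and 961 in the control arrays and 49.0, 179 and 727 in the FO arrays, with FO array 1 the highest of its group. The probe set described as similar to ATP-binding cassette A member 1, the cholesterol exporter, differed by 0.85 (-0.11 to 1.81) and by 0.20 against the artery-named control arrays.

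**Figure D3:**
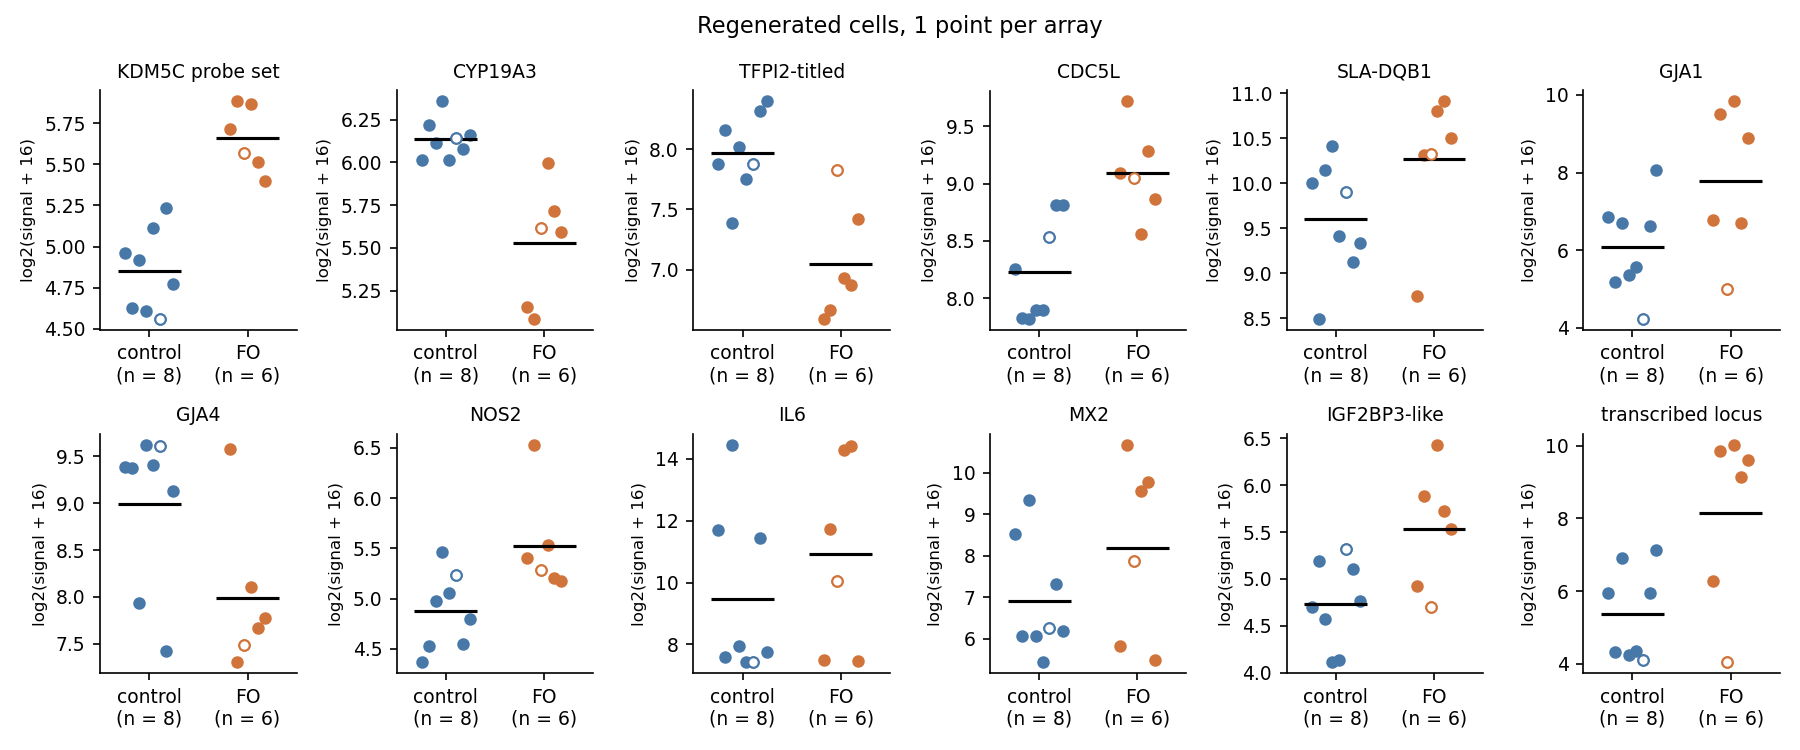
Levels of 12 transcripts in log2(signal + 16), 1 point per array, with lines at the group means (control n = 8, FO n = 6); open circles are control array 6 and FO array 3, the pair of high 3'/5' ratio. The groups do not overlap for the KDM5C probe set and CYP19A3, and overlap in the other 10 panels.

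In native cells of the same diets, 6 probe sets (0.0333%) were called when the animals of the 2 arrays with high ratios were left out, all higher in FO, and 0 with all native arrays. The native arrays of these 2 animals did not have high ratios themselves: they were among the 38 arrays with an actin ratio of at most 6.89 and a GAPDH ratio of at most 1.82. The 6 probe sets called were looked up in the regenerated arrays, which come from the same animals and are no independent sample of them. FO arrays 2, 4, 5 and 6 lay above every control array in 6 of 6 probe sets, and FO arrays 1 and 3 in 0 of 6. In the native arrays the FO array 3 was the lowest of its group in 6 of 6, but FO array 1 was not. Native control array 6 was the highest of its group in most of the 6, though not in all. Leaving out these 2 animals thus took away native arrays that lay nearest the other diet in most of the 6.

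A single probe set of the 6 has a named match, described as highly similar to human IGF-II mRNA-binding protein 3 (IGF2BP3), which stabilises mRNAs in fetal and tumour cells. Its regenerated signals were 1.28, 10.5 and 23.8 in the control arrays and 9.94, 33.5 and 70.16 in the FO arrays. The difference was 0.79 (0.21 to 1.38), 1.04 over the 12 arrays and 0.47 against the artery-named control arrays. The largest of the 6 was an unnamed transcribed locus with control signals of 1.32, 25.1 and 124 and FO signals of 0.51, 653 and 1021. FO arrays 2, 4, 5 and 6 lay between 546 and 1021 there, FO array 1 at 61.3 and FO array 3 at 0.51. The difference was 2.78 (0.89 to 4.66), 3.42 over the 12 arrays and 3.80 in the native cells without the 2 animals. The other 4 differed by 1.29 to 1.62 in regenerated cells, and all 6 had an adjusted p of 0.946 over the 14 arrays and of 0.649 to 0.853 over the 12. Across the 14 arrays the 6 probe sets correlated with each other at r from 0.60 to 0.97, a description of arrays that share their animals' diets and scaling.

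Genes of lipid metabolism showed no call in any of 4 lists. Of 10 measured genes of fatty acid synthesis, 4 were higher in FO by sign and the median difference was -0.04; against the artery-named control arrays 7 were higher and the median was 0.12. SCD, the desaturase that makes monounsaturated fatty acids, had control signals of 1281, 1561 and 2963 and FO signals of 1355, 2368 and 4407, a difference of 0.45 (-0.09 to 1.003). FO array 5 was the highest and the groups overlapped. The difference was 0.27 without FO array 5 and 0.14 against the artery-named control arrays. FASN (fatty acid synthase) differed by 0.11 (-0.74 to 0.96), or 0.84 against the artery-named control arrays, and FADS2, the delta-6 desaturase of polyunsaturated fatty acids, by 0.12 (-0.32 to 0.57). The FASN signal was 43.0 in control array 6, 44.3 in control array 7 and only 3.57 in control array 8. FASN differed by -1.24 in native cells, and its regenerated minus native difference was 1.35 (SE 0.45, adjusted p = 0.947, limma). A dimmer FASN probe set differed by -0.06 (SE 0.15) in the regenerated cells.

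Of 7 measured genes of cholesterol synthesis and uptake, 4 were higher and the median was 0.00. MVK had control signals of 285, 396 and 540.3 and FO signals of 443, 555 and 845, a difference of 0.50 (0.12 to 0.88) that was 0.43 over the 12 arrays and 0.19 against the artery-named control arrays. A dimmer MVK probe set differed by 0.19 (SE 0.15) over all 14 arrays. ACAT2, which joins acetyl-CoA units for the sterol pathway, differed by 0.40 (-0.14 to 0.93), and by 0.07 against the artery-named control arrays. Cholesterol efflux genes were higher in 4 of 8, with a median of 0.04, and NPC1, the lysosomal cholesterol exporter, differed by -0.38 (-0.79 to 0.03).

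Targets of PPARs and genes of fatty acid oxidation were lower in FO in 11 of 14 by sign, with a median of -0.09. PDK4, the kinase that turns off pyruvate dehydrogenase when fatty acids are burnt and a PPAR target, had control signals of 332, 1975 and 3615 and FO signals of 180, 1309 and 2986. Its difference was -0.70 (-2.04 to 0.64), and -1.62 against the artery-named control arrays. The lowest arrays were FO 5 at 180 and control 3 at 332. PPARG differed by -0.28 (-1.25 to 0.69) and FABP4, the fatty acid carrier it induces, by -0.17 (-2.18 to 1.83), or 0.06 over the 12 arrays. Against the artery-named control arrays PPARG differed by -0.68 and FABP4 by -0.80.

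Prostanoid genes gave intervals that spanned 0. The list was higher in 5 of 8 genes with a median of 0.08. PTGS2, the inducible cyclooxygenase, had control signals of 1829, 3439 and 6171 and FO signals of 3025, 3098 and 8212, a difference of 0.23 (-0.41 to 0.87) that was 0.07 against the artery-named control arrays. PTGS1, the constitutive cyclooxygenase, differed by -0.10 (-1.53 to 1.33) by 0.06 over the 12 arrays and by 0.36 against the artery-named control arrays. Prostacyclin synthase, HMG-CoA reductase and heme oxygenase 1 had no named probe set here.

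The vasoactive list was higher in 10 of 14 genes, with a median of 0.24 (0.39 over the 12 arrays and 0.14 against the artery-named control arrays), and 1 gene had an unadjusted p under 0.05. That gene was NOS2, the inducible nitric oxide synthase, with dim signals of 4.63, 13.6 and 28.1 in the control arrays and 20.2, 24.7 and 76.4 in the FO arrays. FO array 2 at 76.4 stood far above the other 5 at 20.2 to 30.4, and the difference was 0.65 (0.16 to 1.15). NOS3, the endothelial synthase, was at 1838 in FO array 1 and at 507 to 746 in the other FO arrays, against control signals of 369.7, 1005 and 1749. Its difference was -0.28 (-1.002 to 0.45), or 0.22 against the artery-named control arrays. EDN1, the precursor of the constrictor endothelin 1, differed by -0.12 (-0.55 to 0.32), and ACE, which makes angiotensin II, by 0.38 (-0.05 to 0.81); against the artery-named control arrays they differed by -0.26 and 0.19.

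Coagulation and fibrinolysis genes were higher in 6 of 12 with a median of -0.02. PLAT, the tissue plasminogen activator, had control signals of 3422, 4179 and 5973 and FO signals of 1884, 2993 and 5743. Its difference was -0.39 (-0.87 to 0.09), and -0.48 over the 12 arrays. THBD, thrombomodulin, which turns thrombin into an activator of protein C, differed by -0.48 (-1.65 to 0.69), and by -0.75 against the artery-named control arrays.

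Inflammatory genes spread widely within each diet. Of 24 measured genes of leukocyte adhesion, cytokines and chemokines, 18 were higher in FO by sign and the median was 0.36 (0.22 over the 12 arrays). In native cells 10 of the 24 were higher and the median was -0.22. IL6 had control signals of 155, 215 and 22400 and FO signals of 160.2, 2210 and 21720. Control array 3 and FO arrays 4 and 5 lay between 20190 and 22400, and 7 of the 14 arrays lay between 155 and 232. The difference was 1.44 with an interval from -1.49 to 4.37. IL1B had FO arrays 4 and 5 at 7855 and 9180 and every other array at 1092 or less, a difference of 1.53 (-0.68 to 3.73). SELE, which catches rolling leukocytes, differed by 0.54 (-1.88 to 2.96) and by 0.14 over the 12 arrays. VCAM1 and ICAM1, which hold leukocytes, were bright everywhere and differed by -0.11 (-0.58 to 0.36) and 0.18 (-0.35 to 0.70), or by -0.0045 and -0.19 against the artery-named control arrays. A slightly dimmer ICAM1 probe set differed by -0.09 (SE 0.20) over the 14 arrays. TLR4, the endotoxin receptor, differed by -0.56 (-1.17 to 0.05), with FO array 5 the lowest at 127. The difference was -0.29 without FO array 5 and -0.27 against the artery-named control arrays.

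Interferon response genes were higher in FO by sign in 21 of 24, where 52.7% of all genes with a symbol were higher, with a median difference of 0.42 (0.30 over the 12 arrays, 0.73 against the artery-named control arrays and 0.10 in native cells). The mean list level per array was 10.39 ± 1.16 (SD, n = 8) in control and 10.86 ± 1.57 (SD, n = 6) in FO, so the difference was smaller than the spread within either group. MX2, an interferon-induced antiviral GTPase, had control signals of 27.4, 59.1 and 633 and FO signals of 29.1, 479 and 1611. FO arrays 2, 4 and 5 lay above every control array, and FO arrays 1 and 6 at 40.8 and 29.1. The difference was 1.29 (-0.49 to 3.08).

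Antigen presentation and apoptosis genes were also mostly higher in FO by sign. Swine major histocompatibility complex genes were higher in 10 of 11, with a median of 0.27 that ran from 0.15 to 0.52 over the other settings and left-out arrays, and of -0.04 in native cells. SLA-DQB1, a class II chain, lay at 413 in FO array 1 and at 1261 or more in the other FO arrays, against control signals of 345, 806 and 1343, and differed by 0.66 (-0.08 to 1.40). SLA-7 differed by 0.77 (-0.16 to 1.69), and PSMB10, a subunit of the immunoproteasome, by 0.73 (-0.30 to 1.75). CD74, the class II chaperone, differed by -0.63 in its brighter (-0.20 against the artery-named control arrays) and by 1.001 in its dimmer probe set. Apoptosis and p53 genes were higher in 8 of 10 with a median of 0.29, which ran from 0.11 to 0.76 over the same alternatives, the highest being that against the artery-named control arrays. Among them was PMAIP1 (the cell death activator NOXA) at 1.05 (-0.08 to 2.18), or 0.68 against the artery-named control arrays.

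**Figure D4:**
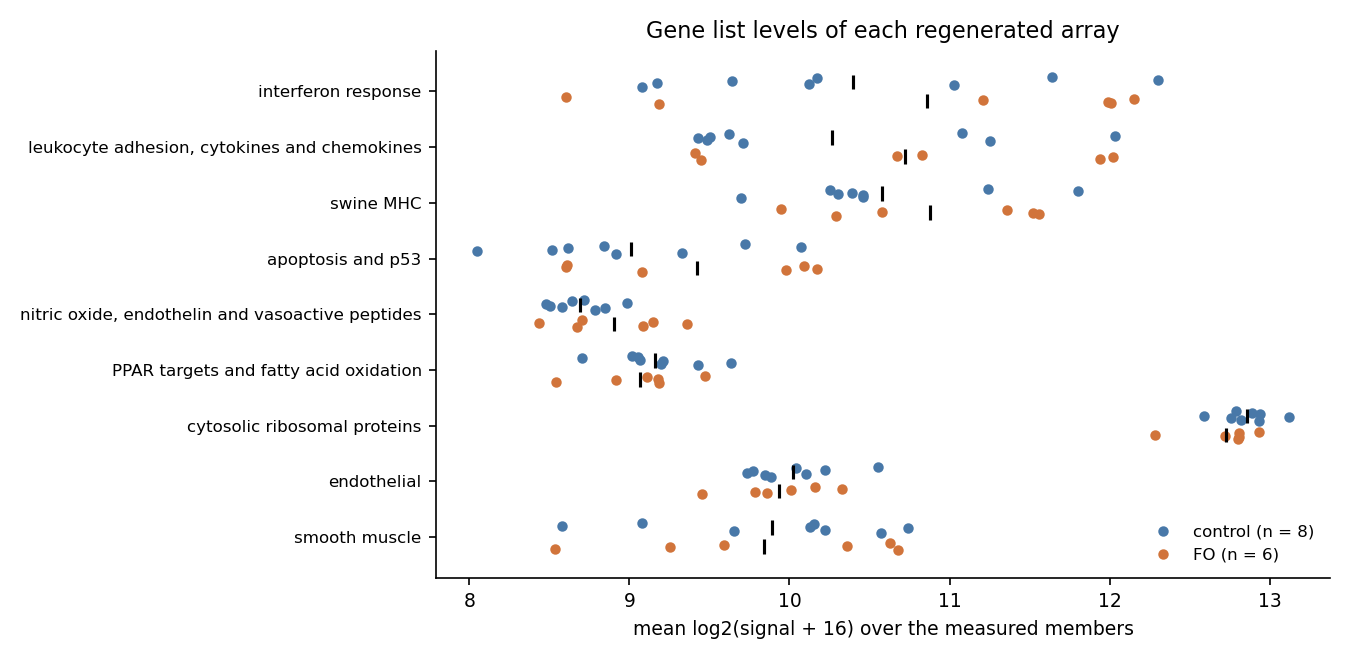
Mean log2(signal + 16) over the measured members of 9 gene lists, 1 point per array, for control (blue, n = 8) and FO (orange, n = 6), with bars at the group means. In the interferon list the control arrays run from 9.08 to 12.30 and the FO arrays from 8.61 to 12.15, and the groups overlap in every list shown.

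A pair of connexin genes had differences of opposite sign, neither past the adjusted threshold. The list of ion channels and calcium handling was higher in 4 of 10 with a median of -0.08. GJA1, connexin 43, had control signals of 2.79, 57.3 and 250.3 and FO signals of 16.1, 276 and 897. FO arrays 2, 4 and 6 lay between 457 and 897, above every control array, while FO array 3 lay at 16.1. The difference was 1.71 (0.14 to 3.29) and 2.01 over the 12 arrays (adjusted p = 0.853).

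GJA4, connexin 37, the connexin typical of arterial endothelium, had control signals of 156, 649 and 771 and FO signals of 142, 195 and 749. FO array 1 lay at 749 and the other 5 FO arrays at 142 to 259, while control arrays 3 and 7 lay at 228 and 156 and the other 6 control arrays at 544 or more. The difference was -0.999 (-1.87 to -0.13), -0.81 over the 12 arrays and 0.58 in native cells, and the regenerated minus native difference was -1.58 (SE 0.50, adjusted p = 0.947). Without FO array 1 it was -1.32.

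Growth, matrix and housekeeping lists had median differences from -0.17 to 0.08. Angiogenic and growth factor genes were higher in 6 of 13 (median -0.17), with FGF2 at 0.51 (-0.01 to 1.03; 0.24 against the artery-named control arrays) in its brighter probe set and -0.07 in the other, and the angiopoietin receptor TEK at -0.43 (-0.96 to 0.11), or -0.15 against the artery-named control arrays. Collagens and laminins were higher in 8 of 22 (median -0.06), with COL12A1 at -0.57. Cell cycle genes were higher in 6 of 16 (median -0.05), with TOP2A, the topoisomerase of dividing cells, at -0.44. Oxidative phosphorylation genes were lower in 12 of 17 (median -0.07), with the complex I subunit NDUFV2 at -0.54 in its brighter probe set and -0.29 in the other. Ribosomal protein genes were lower in 24 of 31 (median -0.08), and in 16 of 31 (median -0.01) over the 12 arrays; FO array 3 had the lowest ribosomal list level, 12.28. Heat shock genes were higher in 9 of 14 (median 0.08), with the endoplasmic reticulum chaperone HSP90B1 at 0.48. The heat shock list level was 11.29 ± 0.08 (SD, n = 8) in control and 11.40 ± 0.09 (SD, n = 6) in FO. The control arrays ran from 11.14 to 11.38 and the FO arrays from 11.29 to 11.51, so the groups overlapped. Against the artery-named control arrays COL12A1 was at -0.93, NDUFV2 at -0.33 and HSP90B1 at 0.73.

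Cell type lists overlapped between the diets. The endothelial list was higher in 6 of 14 genes (median -0.18), with levels of 10.02 ± 0.27 (SD, n = 8) in control and 9.93 ± 0.31 (SD, n = 6) in FO, and CDH5 differed by -0.26 (-0.54 to 0.03). The smooth muscle list was higher in 4 of 10 (median -0.09), with levels of 9.89 ± 0.74 and 9.84 ± 0.86, and ACTA2 differed by -0.69 (-3.29 to 1.92). Against the artery-named control arrays the endothelial median was 0.01, the smooth muscle median -0.26 with 1 of 10 higher, and ACTA2 differed by -1.06. Leukocyte markers were higher in 4 of 5 (median 0.30, and 0.07 against the artery-named control arrays).

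The main axis of variation among the 14 arrays did not separate the diets. The first principal component held 37.5% of the variance and the second 15.6%. Control arrays 1, 3 and 7 and FO arrays 2, 4 and 5 lay below 0 on the first component, which makes 3 of 8 control and 3 of 6 FO arrays. These 6 arrays had interferon list levels from 11.03 to 12.30 and smooth muscle list levels from 8.54 to 9.66. The other 8 arrays had smooth muscle levels from 10.13 to 10.74, and interferon levels from 8.61 to 10.17 except FO array 3, at 11.21. In those 6 arrays ACTA2 was at most 1661 and IL6 at least 2750, and in the other 8 ACTA2 was at least 4877 and IL6 at most 1037. The part of this variation in the FO differences of the inflammatory lists was not tested.

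**Figure D5:**
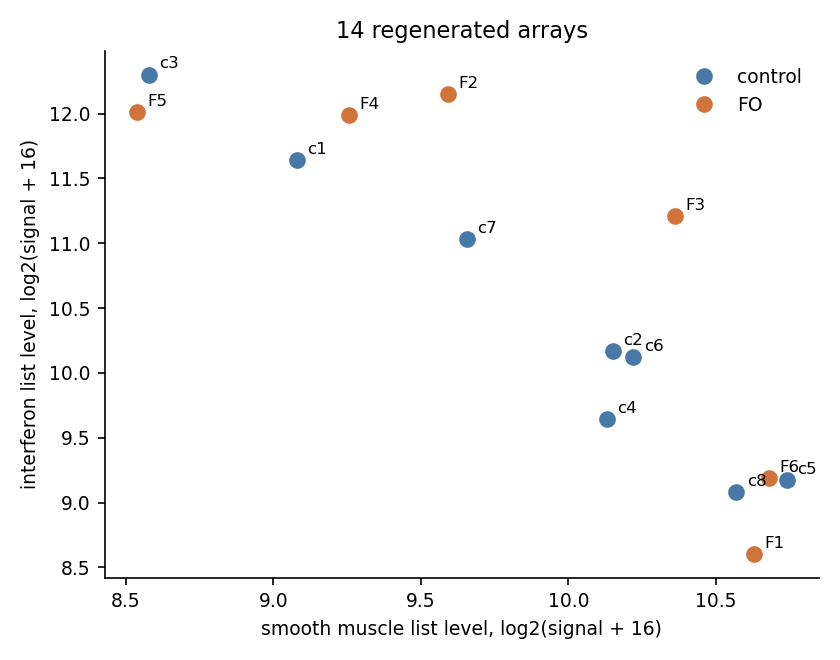
Interferon list level against smooth muscle list level of the 14 regenerated arrays, both in mean log2(signal + 16), with c for control (blue) and F for FO (orange) and the replicate number. Control arrays 1, 3 and 7 and FO arrays 2, 4 and 5 lie at smooth muscle levels of 9.66 or less, and both diets occupy both ends.

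The diet difference was also compared between regenerated and native cells. In native cells alone, 0 of 17999 probe sets (0%) were called, 1441 (8.01%) had an unadjusted p under 0.05, of which 1036 (5.76%) were lower in FO, and the smallest adjusted p was 0.151. The test of the difference between the regenerated and the native diet difference, with the animal as a block, called 0 (0%), with 696 (3.87%) at an unadjusted p under 0.05 and a smallest adjusted p of 0.947 (limma). The descriptions of FO pair 6 give different animal numbers for its native and its regenerated culture, although the design describes cultures of each animal, so this block may not hold for that pair. EDN1 differed by 0.46 in native and -0.12 in regenerated cells, a difference of -0.58 (SE 0.24). FGF2 differed by -0.61 and 0.51, a difference of 1.11 (SE 0.31), and the adjusted p was 0.947 for both genes.

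The authors' deposited table of FO against control regenerated cells lists 1512 probe sets on a log2 scale, of which 247 lie beyond 2-fold, 126 higher and 121 lower. Its header says that the arrays were those left after quality control, without naming them. Of 1503 of these probe sets tested here, 1322 (88.0%) had the same sign in the comparison of 14 arrays, which rests on the same cultures. An unadjusted limma p under 0.05 was found for 44 (2.93%), against 4.71% of all probe sets tested, and 0 were called. The highest value in the authors' deposited table was 3.57 and the lowest -2.75. Among the probe sets with a symbol, the highest in the authors' deposited table was CSF2 (a colony-stimulating factor) at 2.89, against 1.55 here. The authors' deposited table gives CSF3 at 2.56, IL6 at 2.32, IFIT2 at 1.92 and IFNB1 at 1.70, against 1.40, 1.44, 1.48 and 1.53 here. Among the lowest of those with a symbol, the authors' deposited table gives MCAM (an endothelial adhesion molecule) at -1.78, PEG10 at -1.76 and ACTA2 at -1.57, against -0.85, -0.84 and -0.69 here. The authors' deposited table gives GJA4 at -1.13, against -0.999 here. Another of the authors' deposited tables gives the same contrast as fold changes for 658 probe sets, 377 higher and 281 lower in FO. Only 2 probe sets of that other table lay beyond 2-fold. Of its probe sets 548 were tested here, and 461 had the same direction.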

How the data were processed

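RNA of 40 cultures was measured on Affymetrix porcine arrays of 24123 probe sets, and the 14 regenerated arrays of the FO and control groups were used, with the 14 native arrays of the same groups beside them. The authors deposited MAS5 signals, intensity values on a linear scale, with MAS5 named per the submitters' processing notes, without a version. The signal was already scaled, since its trimmed mean, with 2% left out at each end, was 500.1 on every array. The 3'/5' ratio of the control probe sets was computed from those deposited intensities. The authors' deposited tables give log2 values and fold changes of their own comparisons, and the titles inside a pair of other deposited tables disagree with their names, so these were left out.

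Here log2(signal + 16) was taken, 124 control probe sets and the probe sets at or below the 25th percentile of mean level over the 40 arrays were left out, and 17999 were tested with limma 3.58.1 in R 4.3.3 (lmFit, eBayes, two-sided, Benjamini-Hochberg over all tested, threshold 0.05, intervals at 95%). The regenerated and the native comparison were unpaired, and the test between them had the animal as a block. Probe sets were named through the authors' tables, updated with RefSeq names: of 12183 listed, 3061 had a single symbol, and the brightest probe set stood for a symbol. A list level is the mean over its measured members.

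Named genes were, per direction, the 10 symbols and the 10 titled probe sets without a symbol of smallest p, up to 4 members of each of 32 lists with the smallest p, and a fixed vascular set, and the text gives those of them that bear on the comparison; a few are not reported here. The members and lists were chosen with earlier results of these data known. Each animal gave a culture of its own per the labels, and each culture 1 array. No arrays held identical values. Alternatives were other pseudocounts, filters and normalizations, array weights, a replicate block, a spread shared with the cholesterol arrays, artery-named controls, and leaving out arrays.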

Additional observations from a re-analysis of the deposited data

Results flagged for a closer look

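In 9 of 190 groups examined, a single array stood apart from the rest of its group by Dixon's criterion, where chance gives about 1 in 20, or 9.5. All values are log2(signal + 16). FO array 1 was high for ARFGEF1 at 11, with the other FO arrays at 9.65 to 10.1, for NOS3 at 10.9 (others 9.03 to 9.57) and for GJA4 at 9.58 (others 7.30 to 8.10), and low for SLA-DQB1 at 8.74 (others 10.3 to 10.9). FO array 4 was high for FADS2 at 6.62 (others 5.41 to 5.78) and FO array 2 for NOS2 at 6.53 (others 5.18 to 5.54). Control array 3 was low for TOP2A at 7.44 (others 8.68 to 9.77) and for the level of the TGF-beta list at 9.53 (others 9.92 to 10.2). FO array 3, of high 3'/5' ratio, was low for the level of the ribosomal protein list at 12.3 (others 12.7 to 12.9).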

How the results depend on the processing

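The regenerated comparison gave 0 calls under 11 other settings, with 345 to 1318 probe sets at an unadjusted p under 0.05 and a smallest adjusted p of 0.300, and 0 to 1 calls when each array was left out (500 to 1408 unadjusted). The native comparison gave 0 calls with all arrays, 1 with the replicate block, and 0 to 2 when arrays were left out. It gave 6 without the 2 animals whose regenerated arrays had high 3'/5' ratios. The test between them gave 0 throughout (446 to 1237 unadjusted when pairs were left out, and 227 with no replicate block). With the replicate block the regenerated comparison gave 1131 unadjusted. For FO arrays 1 to 6 and control arrays 1 to 6, deviations from the mean of those 6 arrays of the diet were also taken. Between same-numbered FO and control arrays these deviations correlated at -0.46 to 0.18 (median -0.27), and 1 of 6 pairs was over 0.1. Between arrays of unlike number the median was 0.09.

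Of 67 transcripts, 61 kept their sign under every other setting. The reversed values were FABP4 at 0.012 (pseudocount 1) and 0.062 (12 arrays), PTGS1 at 0.062 (12 arrays), 0.36 (artery-named controls) and 0.19 (array weights), NOS3 at 0.22 and ICAM1 at -0.19 (artery-named controls), and FASN at -0.22 and EDN1 at 0.010 (replicate block). With arrays left out, the range spanned 0 for FASN (-0.15 to 0.28), FADS2 (-0.055 to 0.21), FABP4 (-0.89 to 0.22), PTGS1 (-0.37 to 0.29), VCAM1 (-0.20 to 0.065) and ACTA2 (-1.28 to 0.13), and 61 kept their sign. The causes were not tested. Over all settings and left-out arrays the list medians ran from 0.16 to 0.92 (interferon response), 0.18 to 0.60 (leukocyte adhesion, cytokines and chemokines) and 0.13 to 0.40 (vasoactive). The filter at the 50th percentile left out 16 of the 67.

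The limits are the 3 artery-named control arrays, the dim signals of several named transcripts, and the width of the intervals: a difference under 1.41-fold lay within the median 95% limit. The arrays give no read depth, and their number limits the precision.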
